A study of Auxenochlorella pyrenoidosa with 12 samples.

Results

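Chlorella pyrenoidosa (also Auxenochlorella pyrenoidosa) is a unicellular freshwater green alga, and potassium peroxymonosulfate (PMS) is an oxidant used in water treatment. This account covers the contigs that were low at the first treated sampling and then ended above the untreated level at the last. They are 239 of the 30814 contigs of the deposited transcriptome table. A contig is an assembled transcript sequence, and its level is given as FPKM, which scales fragment numbers to contig length and to the library. The members were chosen by measured values of the control, day 0 and day 12 libraries. A contig was a member if it had at least 2 FPKM in both control libraries, a day 0 level at least 1 below the control and a day 12 level at least 1 above it. Levels for this rule were the means of log2(FPKM + 1) over the 2 libraries of a group, on which a difference of 1 is a 2-fold change in FPKM + 1.

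Treated cultures received 8.49 mg/L PMS, which is 0.5 of the median effective concentration of the acute test, and were sampled on day 0 and at 3-day intervals up to day 12. Control cultures received no PMS. Each of these 6 groups had 2 RNA-seq libraries of total RNA from whole cells, and the labels name no strain or genotype. The control label leaves it unclear whether its 0 stands for the dose or the day, and no control of a later day was analysed here, so exposure and culture age cannot be told apart in any comparison of a later day with the control. Whether the libraries of a group are separate cultures is not stated, and p-values therefore cover no more than the spread between these libraries, which may be technical.

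Peroxymonosulfate is a strong oxidant that can give rise to sulfate and hydroxyl radicals. In green algae, oxidants act on membranes, photosynthetic pigments and proteins, and cells respond with antioxidant enzymes, chaperones and repair of the photosystems. Algal transcript levels also move with light, nutrients and the density of the culture. Contigs carry no gene names in the table, so none of these functions can be assigned to a member, no list of genes was described and no sequence is shown. Members are therefore described by their levels and courses.

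The libraries differed in ways that touch the members. Total FPKM per library was 487140 to 603105, and the most abundant contig held 4.69% to 10.9% of it. Contigs below 0.01 FPKM numbered 10166 to 11347 in the control and day 0 libraries and 1221 to 8613 in the later ones. As a share of the library, FPKM cannot separate less RNA of a contig per cell from fewer cells that make it. The libraries of day 3, and more so those of day 9, stood apart from each other in the members, which is described with its values before the tests.

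By the rule, all members were low on day 0 and high on day 12, and the values between show how they got there. The median member stood at 6.99 and 5.75 FPKM in the 2 control libraries and at 1.68 and 1.03 FPKM on day 0. It reached 3.82 and 7.59 FPKM on day 3, 8.32 and 9.59 FPKM on day 6, 11.3 and 23.9 FPKM on day 9, followed by 26.2 and 24.7 FPKM on day 12. The tests cover the 17653 contigs whose mean over all libraries reached 1 FPKM, and their median moved far less and lay between 2.35 and 4.91 FPKM in all libraries. All 239 members passed that minimum, which the rule itself ensures.

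**Figure D1:**
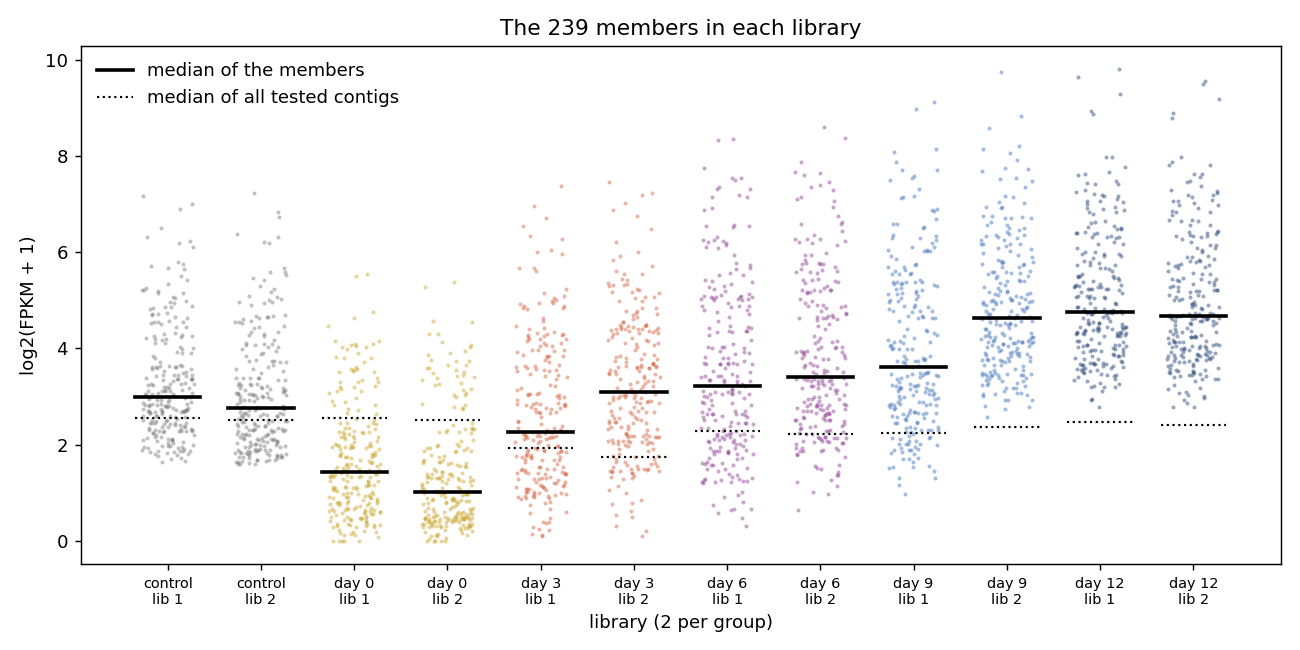
Level of each of the 239 members, as log2(FPKM + 1), in the 12 libraries, with points for members, solid bars for their median and dotted bars for the median of all tested contigs. The members' median lay under that of all tested contigs only in the 2 day 0 libraries and climbed to 26.2 and 24.7 FPKM on day 12, with the 2 day 9 libraries well apart.

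The day 0 and day 12 differences chose the members and are given as a description only. On day 0 the difference from the control had a median of -1.498 and reached -3.82. On day 12 its median was 1.67 and its maximum 5.37. The member closest to the day 0 limit had a difference of -1.00056, and the nearest contig outside it -0.997288. At the day 12 limit the values were 1.00658 inside and 0.992447 outside, and at the control minimum 2.03 FPKM inside and 1.99 FPKM outside. On day 0, 9 members lay below 0.01 FPKM in 1 or both libraries, and 1 of them in both.

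The members' share of the measured transcriptome was lowest on day 0 and highest on day 12. The rule favours a low share on day 0 and a high one on day 12, so both ends are a description. Their summed FPKM was 0.616% and 0.513% of the library total in the control, 0.1505% and 0.122% on day 0, followed by 0.448% and 0.711% on day 3. It was 1.10% and 1.27% on day 6, 1.53% and 2.42% on day 9, followed by 2.86% and 2.76% on day 12. Among the 1000 contigs with the highest FPKM of a library, 8 and 7 were members in the control, 0 in the libraries of day 0, 27 in both of day 6, and 54 and 50 on day 12. The counts of day 0 and day 12 likewise follow from the levels that chose the members. The 10 highest members of a library held 26.3% to 34.4% of the members' sum.

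Single members show how courses could differ. The member with the highest control level had 143 and 149 FPKM in the control, 13.2 and 15.8 FPKM on day 0, followed by 10.5 and 16.4 FPKM on day 3. It then had 321 and 334 FPKM on day 6, 506 and 457 FPKM on day 9, followed by 802 and 752 FPKM on day 12. Its day 0 and day 3 libraries overlapped, and every library from day 6 on lay above both control libraries. The member with the largest difference on day 0 had 0.506 and 0.425 FPKM on day 0, against 22.7 and 17.0 FPKM in the control, a 42.7-fold difference of means. It was already at 31.0 and 41.8 FPKM on day 3 and ended at 177 and 179 FPKM on day 12. Thus the most abundant control transcript of the members stayed low through day 3, while the member with the largest day 0 difference had passed the control by then.

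Members did not come back at the same time. On day 3, 57 members (23.8%) were still at least 1 below the control on the log2 scale, 151 lay within 1 of it and 31 (13.0%) were at least 1 above it. Among all tested contigs 33.0% were at least 1 below and 15.3% at least 1 above. On day 6, 9 members were at least 1 below and 66 at least 1 above, against 27.0% and 22.2% of all tested contigs. On day 9, 0 members were at least 1 below and 138 (57.7%) at least 1 above, against 25.4% and 24.6% of all tested contigs. These comparisons share the control libraries with the rule, so the counts are a description. Without day 3 library 1 the 31 became 48, and without day 9 library 2 the 138 became 83 and the 0 became 2. The 9 on day 6 became 4 without day 6 library 1, 23 without its library 2 and 16 without control library 2. The first sampling day on which a member was at or above the control was day 3 for 95 members (39.7%), day 6 for 76, day 9 for 61 and day 12 for 7. The share on day 3 was near that of all tested contigs, of which 39.9% lay above the control that day. The first day at least 1 above the control was day 3 for 31, day 6 for 48, day 9 for 63 and day 12 for 97. For first days after day 3, shares over all tested contigs were not counted. Without day 9 library 1 the 138 members above on day 9 became 200, and the first day at least 1 above was day 9 for 122 and day 12 for 38. Without day 9 library 2 these were 14 and 146. For the first day at or above the control, the 61 became 37 without day 9 library 2. The 7 became 1 without control library 1. With day 9 library 1 left out they became 0, and with its library 2 left out 31.

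Courses were of several kinds. In 69 members the level was within 1 of the control on days 3, 6 and 9 and passed that limit by day 12. Another 46 stayed within 1 on days 3 and 6 and were above it on day 9, and 31 were within 1 on day 3 and above it from day 6 on. How the first 2 of these courses compare in number rested on the day 9 libraries. The 69 became 24 and the 46 became 91 without day 9 library 1, while they became 110 and 5 without day 9 library 2. Of the 31 members at least 1 above the control on day 3, 18 were so on days 6 and 9 too, 10 dipped within 1 of it on day 6, and 3 were within 1 on both days. Each sampling day lay above the day before it, from day 0 to day 12, in 111 members (46.4%), against 8.34% of all tested contigs. The rule fixes the ends of this course and so raises that share. Day 12 was the highest treated day for 208 members, day 9 for 15, day 6 for 13 and day 3 for 3. Without day 9 library 1, day 9 was the highest for 64.

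**Figure D2:**
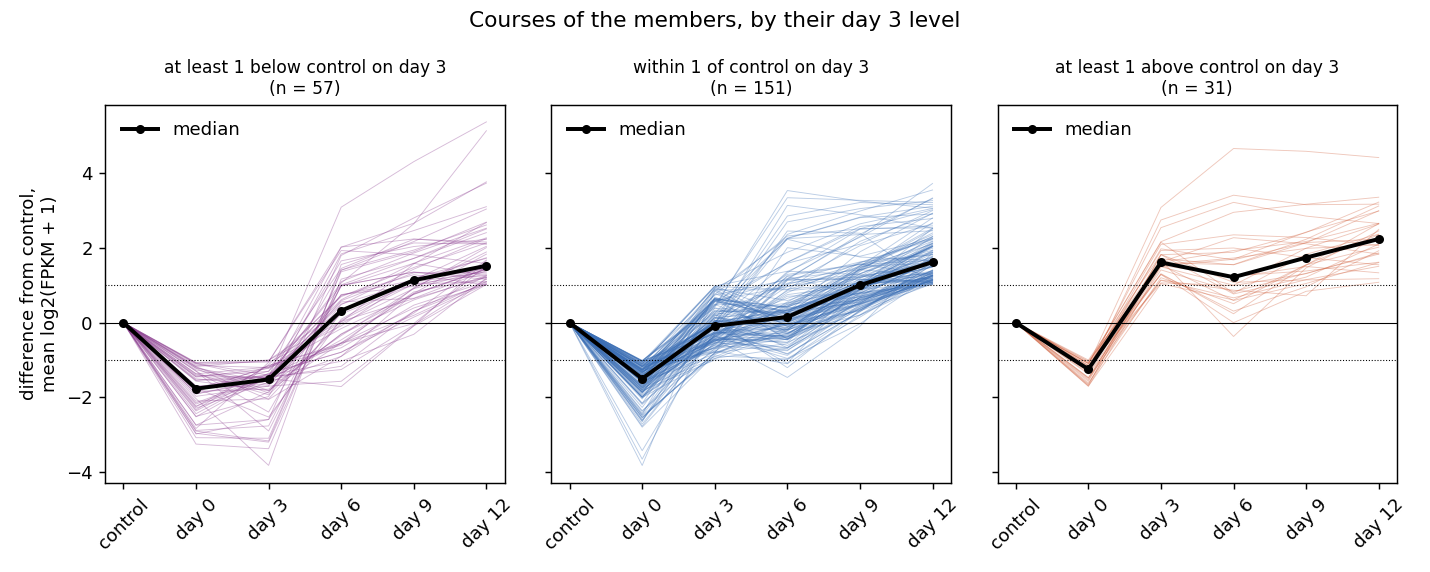
Difference of each member from the control, in mean log2(FPKM + 1), for the control and the 5 sampling days, in panels by the level on day 3, with thin lines for members, a black line for the median and dotted lines at 1 and -1. The 57 members low on day 3 had a median of -1.52 that day and 0.32 on day 6. The 31 members high on day 3 stood at 1.61 that day.

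The 3 groups formed by the day 3 level differ on that day by construction, and their other days show the course before and after it. The 57 members low on day 3 had a median of 1.74 and 1.26 FPKM on day 0, 1.19 and 2.78 FPKM on day 3, followed by 10.5 and 11.6 FPKM on day 6. The 151 intermediate members had 1.57 and 0.866 FPKM on day 0, 3.91 and 7.59 FPKM on day 3, followed by 6.25 and 8.30 FPKM on day 6. The 31 members high on day 3 had 2.36 and 1.70 FPKM on day 0, 22.9 and 25.8 FPKM on day 3, followed by 15.2 and 16.8 FPKM on day 6. On day 12 the medians were 27.9 and 25.6 FPKM in the members low on day 3 and 23.8 and 22.9 FPKM in the intermediate. They were 36.5 and 36.2 FPKM in those high on day 3. Members low on day 3 and intermediate ones were apart that day and had medians of 22.9 to 27.9 FPKM on day 12. Members low on day 3 were not behind the intermediate ones on days 6 and 9. Their median differences from the control were 0.32 and 1.13 on these days, against 0.15 and 1.00. No test was made of groups formed by the level itself. The median change to day 6 from day 3 on the log2 scale was 1.92 in the members low on day 3. It was 0.24 in the intermediate members and -0.28 in those high on day 3.

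The lowest group was day 0 for 217 members and day 3 for the other 22. From day 0 to day 3 the members' median change was 1.34 on the log2 scale, and from day 9 to day 12 it was 0.64. Among all tested contigs these medians were -0.22 and 0.01. Each of these differences shares a group with the rule, so no test is given.

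The 2 libraries of a group differed in a common direction across the members, although the rule used no difference between libraries. On day 9, library 2 was higher than library 1 in 221 of 239 members (92.5%), against 56.1% of all tested contigs, with a median difference of 0.87 on the log2 scale, against 0.07. It was at least 1 higher in 106 members (44.4%), against 6.03% of all tested contigs, and library 1 was at least 1 higher in 1 member. On day 3, library 2 was higher in 226 members (94.6%), with a median difference of 0.62, against 45.7% and -0.01 in all tested contigs. On day 6 it was higher in 217 members (90.8%), with a median of 0.26, against 48.3% of all tested contigs and a median of -0.0045. Library 2 was higher on days 3, 6 and 9 together in 200 members (83.7%), against 19.3% of all tested contigs.

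In the groups that the rule used, the direction was the other way or small. Control library 2 was lower than library 1 in most members and higher in 20 (8.37%), against 45.1% of all tested contigs. The median difference was -0.25 in the members. On day 0 library 2 was higher in 77 members (32.2%), with a median of -0.18, against 35.6% and -0.04 in all tested contigs. The share on day 0 was thus near that of all tested contigs. On day 12 library 2 was higher in 81 members (33.9%), with a median of -0.06, against 49.9% of all tested contigs. The labels do not say whether libraries with the same number on different days are linked. Across members, the difference of library 2 from library 1 on day 3 went with that on day 9 (Pearson r = 0.37, Spearman rho = 0.40, n = 239 contigs), against 0.25 and 0.23 over all tested contigs.

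**Figure D3:**
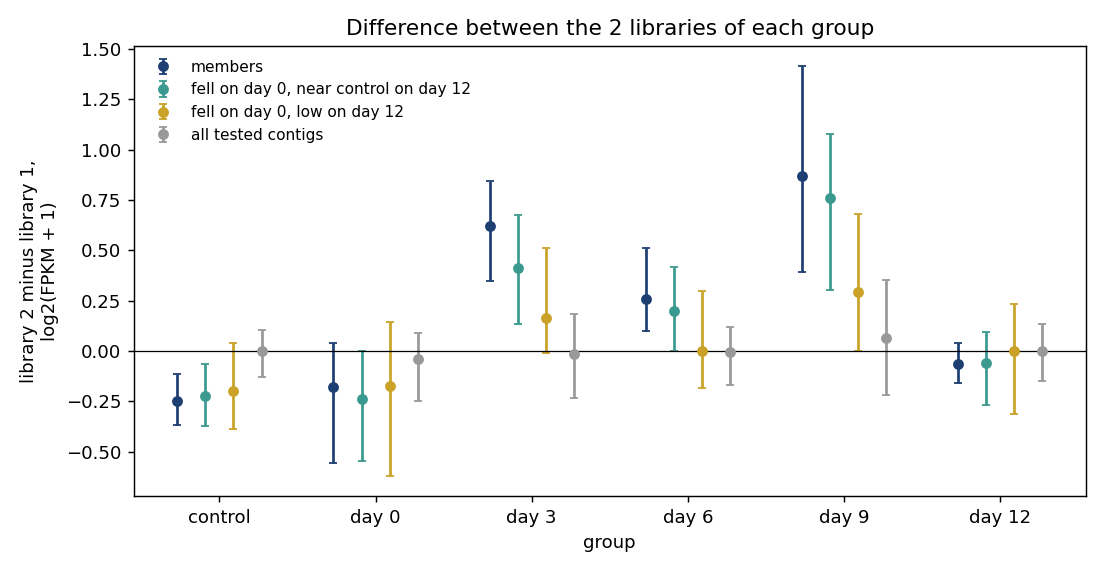
Median difference of library 2 minus library 1, in log2(FPKM + 1), in each group for the members, the 2 lists of other contigs that were low on day 0, and all tested contigs; bars span the middle quartiles of contigs. Members had medians of 0.62, 0.26 and 0.87 on days 3, 6 and 9 and of -0.06 on day 12.

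Day 9 library 1 lay near the day 6 libraries and day 9 library 2 near the day 12 libraries. Taken from the day 6 mean, the members' median change to day 9 was 0.34 with library 1 alone and 1.26 with library 2 alone. From day 9 to day 12 it was 1.11 with library 1 and 0.12 with library 2. Members at least 1 above the control numbered 83 (34.7%) in day 9 library 1 and 200 (83.7%) in day 9 library 2. Of all tested contigs these were 23.4% and 26.1%. All 239 members were above both control libraries in day 9 library 2, against 46.3% of all tested contigs. In day 9 library 1 it was 173 members (72.4%), against 42.8%. Across members, the difference between the day 9 libraries went with the change from day 6 to day 12, which shares no library with it (Pearson r = 0.74, Spearman rho = 0.69, n = 239 contigs). Over all tested contigs the values were 0.45 and 0.44. Contigs of a library share its depth and composition, so these values are descriptive. Whether the day 9 libraries differ by culture, by handling or by sequencing was not tested.

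Days 3, 6 and 9 were not used to choose the members, so the steps between them could be tested. From day 3 to day 9, 142 of the 239 members (59.4%) rose and 0 fell, in a limma fit of all 12 libraries with Benjamini-Hochberg adjusted p under 0.05 over all tested contigs. Among all tested contigs 34.9% were called higher and 16.1% lower. The members' median difference was 1.32 on the log2 scale, against 0.31 for all tested contigs. It was positive in 218 members (91.2%), against 63.5% of all tested contigs. The median over the 142 called members was 1.99, a 3.98-fold rise in FPKM + 1, and 127 of them reached 2-fold. At an unadjusted p under 0.05, 160 members were higher and 0 lower. Both day 9 libraries lay above both day 3 libraries in 163 members (68.2%), against 46.9% of all tested contigs, and below them in 1 member, against 23.5%. Because libraries shifted in common, the calls of different members are not independent of each other. With only the 4 libraries of days 3 and 9 in the fit, 87 members were called higher and 0 lower. That fit called 5809 of the 17653 tested contigs in either direction, against 9004 in the fit of all 12 libraries. Without day 9 library 2, 7 members were called lower.

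The first of the steps within this span was from day 3 to day 6. In it 88 members (36.8%) rose and 5 (2.09%) fell by the same limma test, against 31.2% and 14.4% of all tested contigs. The share of rises was thus near that of all tested contigs. The median difference of all members was 0.44, against 0.23 for all tested contigs, while the 88 rising members had a median of 1.87, a 3.64-fold rise. The members called higher numbered 71 to 95 when single libraries of these days were left out. The 5 called lower became 1 without day 3 library 2 or day 6 library 1 and 2 without day 6 library 2.

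The step from day 6 to day 9 was a rise in most members, but few passed the test. Its median over the members, 0.78, was above the 0.44 of the step before, but this order rested on single libraries. The median was 0.34 with day 9 library 1 alone and 1.26 with day 9 library 2 alone. For the step before, it was 0.67 with day 3 library 1 alone and 0.16 with day 3 library 2 alone. The difference of day 9 from day 6 was positive in 223 members (93.3%), with a median of 0.78, against 52.6% and 0.03 for all tested contigs. Other contigs that met the same day 0 limit shared this in part. Those that ended within 1 of the control were positive in 88.0%, with a median of 0.49. Those that ended at least 1 below it were positive in 68.8%, with a median of 0.21. Only 20 members (8.37%) rose and 0 fell by limma with adjusted p under 0.05, against 5.05% and 1.5% of all tested contigs. At an unadjusted p under 0.05, 119 members were higher and 2 lower. The count of 20 rested on single libraries. Leaving out day 9 library 1 gave 126, and leaving out its library 2 gave 3. Leaving out day 6 library 1 gave 2, and leaving out its library 2 gave 4. The 0 called lower became 1 without day 9 library 1. For the fits without 1 library, calls over all tested contigs were not counted. A fit of these 4 libraries alone called 0 members and 0 of all tested contigs with limma. At an unadjusted p under 0.05 that fit had 70 members higher and 4 lower, against 3138 tested contigs in either direction. Of the 20 rising members, 12 were among the 57 low on day 3, 7 among the 151 intermediate and 1 among the 31 high on day 3. The median step of these groups was 0.80, 0.83 and 0.46, in the same order. The calls were 21.1%, 4.64% and 3.23% of these groups, against 5.05% of all tested contigs. As the 20 rested on single libraries, no difference between the groups is read from these shares.

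**Figure D4:**
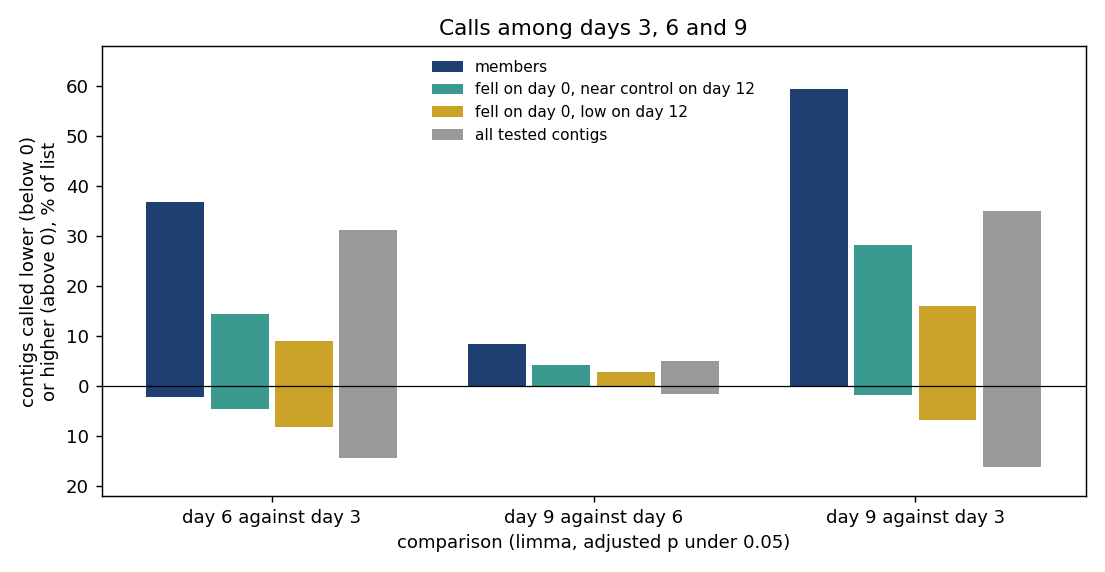
Share of each list called higher (above 0) or lower (below 0) among days 3, 6 and 9 by limma with adjusted p under 0.05, for members, contigs low on day 0 that were near the control or low on day 12, and all tested contigs. From day 3 to day 9, 59.4% of members rose and 0 fell, against 34.9% and 16.1% of all tested contigs.

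Both steps were called higher in 15 members, the first alone in 73 and the second with no call of the first in 3. A fall to day 6 followed by a rise to day 9 was called in 2 members, and 143 members (59.8%) were called in neither step. Joint calls were not counted over all tested contigs, so these numbers describe the members and show no trait particular to them. Across members, these steps were inversely related (Pearson r = -0.30, Spearman rho = -0.29, n = 239 contigs), and they share the day 6 libraries with opposite sign. This correlation is across contigs, which are not replicates.

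The limma calls of days 3, 6 and 9 against the control are given as counts only. On day 3, 38 members (15.9%) were higher and 57 (23.8%) lower, against 20.7% and 43.2% of all tested contigs. On day 6, 81 members (33.9%) were higher and 4 lower, against 30.6% and 38.5%. On day 9, 142 members (59.4%) were higher and 0 lower, against 31.5% and 36.6%, with 149 higher and 0 lower at an unadjusted p under 0.05. These comparisons use the control libraries that also chose the members, so nothing is read from the counts. Without control library 2, the members called higher on day 3 numbered 25. The 4 lower on day 6 became 1 without control library 1 and 0 without day 6 library 1, and the 0 lower on day 9 became 4 without day 9 library 2. After rescaling of libraries by a median ratio, the members' median difference from the control on day 3 turned from -0.27 to 0.0014, and that of all tested contigs moved from -0.37 to -0.12. On days 6 and 9 rescaling raised the members' median by 0.17 and 0.19 and that of all tested contigs by 0.16 and 0.18.

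The 2 members with the largest rises from day 3 to day 9 were at their lowest, or close to it, on day 3. TRINITY_DN328_c0_g1_i1_4 had 54.8 and 46.9 FPKM in the control, 10.8 and 12.6 FPKM on day 0, followed by 2.19 and 3.21 FPKM on day 3. It then had 146 and 156 FPKM on day 6, 210 and 242 FPKM on day 9, followed by 218 and 224 FPKM on day 12. It was the member furthest below the control on day 3, and no library from day 6 on overlapped with the earlier ones. Its rise by day 9 over day 3 was 5.95 on the log2 scale (SE 0.14, limma adjusted p = 1.92e-08), nearly all of it by day 6, where the difference from day 3 was 5.37 (limma adjusted p = 3.67e-08).

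TRINITY_DN199_c0_g1_i1_4 was a low contig that became abundant. It had 2.66 and 2.35 FPKM in the control, 0.217 and 0.350 FPKM on day 0, followed by 0.309 and 0.232 FPKM on day 3. Its level was 27.9 and 29.6 FPKM on day 6, 65.6 and 71.0 FPKM on day 9, followed by 143 and 145 FPKM on day 12. The day 0 and day 3 libraries overlapped, and the later days followed each other without overlap. Over the same span it rose by 5.77 (SE 0.10, limma adjusted p = 6.98e-09), and its difference of day 9 from day 6 was 1.22 (limma adjusted p = 0.000367). Its day 12 mean was 57.4-fold the control mean, and on the log2 scale it had the largest day 12 difference of all members.

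The 2 members with the lowest difference between day 9 and day 3 did not pass the test and are given as values. TRINITY_DN10090_c0_g1_i2_2 had 3.99 and 5.05 FPKM in the control, 2.86 and 0.955 FPKM on day 0, 18.2 and 18.6 FPKM on day 3, followed by 9.81 and 11.5 FPKM on day 6. It had 7.98 and 15.4 FPKM on day 9, followed by 10.5 and 12.4 FPKM on day 12. Its day 3 libraries were its highest, and its difference of day 9 from day 3 was -0.68 (SE 0.34, limma adjusted p = 0.129). It is also the member just inside the day 0 limit.

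TRINITY_DN5569_c0_g4_i1_4 had a similar peak on day 3 and a second high level at the end. It had 3.47 and 3.95 FPKM in the control, 0.727 and 0.269 FPKM on day 0, 12.5 and 19.5 FPKM on day 3, followed by 6.65 and 7.38 FPKM on day 6. On day 9 its libraries were far apart, at 5.66 and 17.0 FPKM, and on day 12 it had 20.2 and 18.2 FPKM. The difference of day 9 from day 3 was -0.60 (SE 0.40, limma adjusted p = 0.245).

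**Figure D5:**
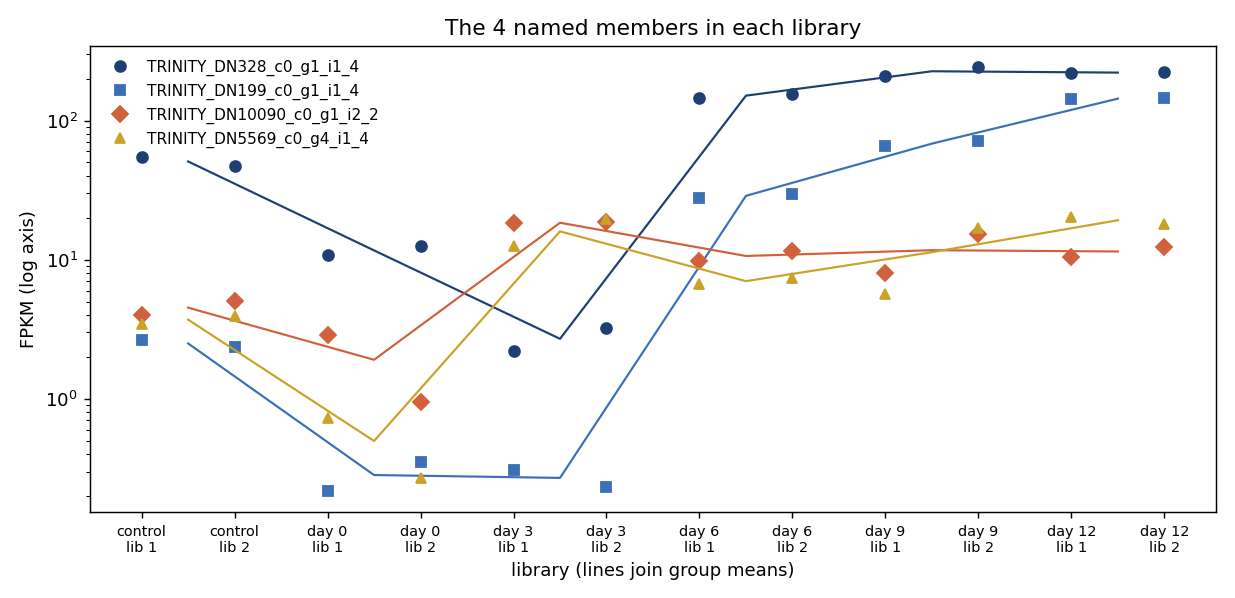
FPKM of the 4 named members in each of the 12 libraries on a log axis, with lines that join the group means. TRINITY_DN328_c0_g1_i1_4 and TRINITY_DN199_c0_g1_i1_4 were low through day 3 and high from day 6, while TRINITY_DN10090_c0_g1_i2_2 and TRINITY_DN5569_c0_g4_i1_4 were at 12.5 to 19.5 FPKM on day 3.

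The member furthest above the control on day 3 stood higher still on the later days. It had 4.68 and 4.59 FPKM in the control, 1.502 and 1.63 FPKM on day 0, followed by 47.8 and 45.5 FPKM on day 3. Its level was 141 and 142 FPKM on day 6, 139 and 129 FPKM on day 9, followed by 114 and 125 FPKM on day 12, so its highest day was day 6. The member with the highest day 12 mean had 127 and 106 FPKM in the control, 8.22 and 8.40 FPKM on day 0, followed by 92.3 and 148 FPKM on day 3. On day 9 it had 560 and 863 FPKM and on day 12 892 and 728 FPKM, so the day 12 libraries lay on either side of the second day 9 library.

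The members are the smallest of 3 sets that met the same control minimum and the same day 0 limit, 1240 contigs in all. In 642 others the day 12 level lay within 1 of the control, and in 359 it lay at least 1 below it. The median member stood at 6.99 and 5.75 FPKM in the control, against 4.92 and 3.95 FPKM for the 642 and 5.10 and 4.49 FPKM for the 359. On day 0 the median differences from the control were -1.498, -1.37 and -1.37, in the same order.

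The steps among days 3, 6 and 9, which did not choose the sets, are given for all 3. Of the 642, 614 passed the minimum mean for testing, and of the 359, 280 did. Between days 3 and 9, 142 of the 239 members (59.4%) were called higher by limma, against 173 of the 614 (28.2%) and 45 of the 280 (16.1%). For day 6 against day 3 it was 88 members (36.8%), against 89 (14.5%) and 25 (8.93%). For day 9 against day 6 it was 20 members (8.37%), against 26 (4.23%) and 8 (2.86%). The difference of day 9 from day 6 was positive in 223 members (93.3%), in 565 of the 642 (88.0%) and in 247 of the 359 (68.8%). The difference between the sets was not tested. The sets also stood at different levels. On days 3, 6 and 9 the library medians were 3.82 to 23.9 FPKM in the members, 1.19 to 4.23 FPKM in the 642 and 0.342 to 1.14 FPKM in the 359. Values as log2(FPKM + 1) understate the change of low contigs, so the shares of calls are not compared at like levels. The direction between libraries was shared with the other sets in part. Library 2 was higher on days 3, 6 and 9 together in 200 members (83.7%), in 369 of the 642 (57.5%) and in 95 of the 359 (26.5%). On day 9 library 2 was at least 1 higher in 106 members (44.4%), in 209 of the 642 (32.6%) and in 47 of the 359 (13.1%).

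The members came from many places of the assembly. Trinity, the assembler whose naming the rows follow, groups contigs into components and genes. Only 6 members shared a component with another member, and 2 of them shared a gene, while 195 members (81.6%) had at least 1 other contig of the table in their component, against 74.9% of all tested contigs. In the members' components there were 361 other tested contigs. Of these, 24 (6.65%) had a day 0 level at least 1 below the control, against 8.12% of all tested contigs, and 94 (26.0%) a day 12 level at least 1 above it, against 26.5%. Other contigs of the same component thus were near the shares of all tested contigs in both comparisons. Fragments shared by contigs of a component may have been divided between them, by rules not given in the sources used here.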

How the data were processed

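RNA-seq of 12 libraries (6 groups of 2) was deposited as a table of FPKM values computed by the authors, and this unit is taken from the name given to the deposited table. Beyond contig names in the form Trinity gives, the assembly settings, aligner, abundance program and read filters were not given in the sources used. Depth in fragments is not given. Ratios of low values to control library 1 clustered at steps (peak bin 2.86 to 14.0 times the median bin), but contig lengths are not given, so fragment numbers and counting intervals could not be derived. No pair of libraries of a group shared an identical value above 0 among tested contigs.

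Values were analysed as log2(FPKM + 1), which understates the change of low contigs, for the 17653 contigs whose mean reached 1 FPKM; 13161 were left out. All 12 libraries entered 1 limma 3.58.1 fit of group means in R 4.3.3 (eBayes with an intensity trend, 6 residual degrees of freedom), with Benjamini-Hochberg adjustment over all tested contigs in each of 6 comparisons and a threshold of 0.05. The fit was tested on simulated data with known changes. With 2 libraries against 2 the smallest two-sided exact permutation p is 0.333, so single values were not tested that way. Python 3.11.15 made summaries and figures.

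The members and lists were chosen with earlier results of these data known. In the absence of gene names only 4 members are identified, those with the 2 largest and 2 lowest differences of day 9 from day 3. The 2 largest were taken from members called in that comparison with no overlap of libraries. With 0 members called lower, the 2 lowest are given as values, as the naming rule provides. Other members are described without an ID, by extremes chosen after their values were seen. Alternatives were another pseudocount, rescaled libraries, other minimum values, a replicate block, fits of 4 libraries and leaving out single libraries.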

Additional observations from a re-analysis of the deposited data

How the results depend on the processing

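The number of members stayed within 1.5 times of 239 with a pseudocount of 0.1 (308), rescaled libraries (280, of which 223 were the same contigs), a control minimum of 1 FPKM (295) and single control, day 0 or day 12 libraries left out (213 to 265). It was 135 with a control minimum of 5 FPKM and 77 with a limit of 1.5 on the log2 scale. Members called higher from day 3 to day 9 numbered 142, and 87 when only the 4 libraries of those days were fitted; leaving out single libraries gave 104 to 187. Those called lower were 0, with 1 under rescaling and 0 to 7 without single libraries. From day 3 to day 6 the 5 called lower were 12 under rescaling, 8 with a minimum mean of 5 FPKM, 10 with the 4 libraries alone and 1 to 5 without single libraries. From day 6 to day 9 the 20 called higher were 9 with a pseudocount of 0.1, 0 with the 4 libraries alone and 2 to 126 without single libraries. The 0 called lower were 1 with a minimum mean of 5 FPKM and 0 to 1 without single libraries.

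Against the control, 25 to 41 members were called higher on day 3 without single libraries. The 4 called lower on day 6 were 8 with the replicate block, 25 with the 4 libraries alone and 0 to 4 without single libraries, and the 0 called lower on day 9 were 0 to 4. The cause of these changes was not tested. The replicate block moved no other count of calls by over 1.5 times. The labels do not say that replicate numbers pair the libraries, and the numbers were not treated as pairs. Deviations of same-numbered libraries correlated at -0.19 to 0.41 over 15 pairs of groups, and 3 of these were over 0.1.

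Courses were recomputed by settings chosen after seeing the data. Members at least 1 above the control on day 3 numbered 31, and 48 without day 3 library 1. On day 9 they numbered 138, and 83 without day 9 library 2. The 9 members at least 1 below the control on day 6 became 21 with a pseudocount of 0.1, 23 without day 6 library 2, 16 without control library 2 and 4 without day 6 library 1. Depth in fragments is unknown, so counting error could not be separated from the spread between libraries.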
